A study of Mus musculus with 4 samples.

Results

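CXCR3 is the receptor for the interferon-inducible chemokines CXCL9, CXCL10 and CXCL11, and the genes described here are Cxcr3, Cxcl9, Cxcl10 and Cxcl11, taken by symbol. Of these 4 genes, 3 are counted in the deposited matrix of 31053 genes, and Cxcl11 was not analysed here. The genes were chosen by measured values: earlier results of these data had shown the Cxcl9 level in Kupffer and B cells to differ between the groups, so every member in those cells is given as a description with no test. The cells were CD45+ hepatic non-parenchymal cells of male mice aged 8 weeks. CD45 is a surface protein of blood-derived cells, and the labelled purity of the bead enrichment was above 90%. All mice carried tumours of MC38, a mouse colorectal cancer line, and livers were taken 3 weeks after tumour injection, in a model of liver metastasis promoted by surgical stress. There were 2 groups of 2 libraries: sedentary mice (Sed 1 and Sed 2) and mice exercised before the operation (Ex 1 and Ex 2, PEx in the labels). The libraries are 10x 3′ single-cell libraries, and the labels give neither the strain nor the number of animals behind each library, so the p-values below measure only the spread between these libraries, which may be technical.

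CXCR3 is a chemokine receptor that signals through inhibitory G proteins and guides activated T cells, NKT cells, NK cells and ILC1 towards sites of inflammation. Cxcl9 is induced chiefly by interferon gamma, whereas Cxcl10 also answers to type I interferons and to NF-kB. In the liver, Kupffer cells, monocyte-derived macrophages, dendritic cells and sinusoidal endothelial cells are known sources of these ligands, and lymphocytes that make interferon gamma are known receivers.

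The 3 ligand genes lie side by side on the minus strand of chromosome 5 (GRCm38). Cxcl9 (ENSMUSG00000029417) spans chr5:92321347-92328079, Cxcl10 (ENSMUSG00000034855) spans chr5:92346638-92348889 and Cxcl11 (ENSMUSG00000060183), annotated as a polymorphic pseudogene, spans chr5:92359544-92365485. The gaps between neighbours are 18558 and 10654 bases. Cxcr3 (ENSMUSG00000050232) lies on the X chromosome at chrX:101731535-101734269, also on the minus strand. The 250 bases before the start of each ligand gene are shown because both ligands rose in monocyte-like cells (given further on), and their letters were taken from RefSeq (GRCm38.p6, minus strand, 5′ to 3′). They are chr5:92328080-92328329 for Cxcl9 and chr5:92348890-92349139 for Cxcl10. Capitals mark matches to the core of an interferon-stimulated response element (GAAANNGAA) or to an NF-kB motif (GGGANTTCC), searched on both strands.
Cxcl9 promoter: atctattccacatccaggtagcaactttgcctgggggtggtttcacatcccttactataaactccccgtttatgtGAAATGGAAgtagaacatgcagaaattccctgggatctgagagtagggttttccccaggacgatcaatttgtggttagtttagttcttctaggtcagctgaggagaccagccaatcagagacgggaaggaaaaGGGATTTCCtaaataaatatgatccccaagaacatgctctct
Cxcl10 promoter: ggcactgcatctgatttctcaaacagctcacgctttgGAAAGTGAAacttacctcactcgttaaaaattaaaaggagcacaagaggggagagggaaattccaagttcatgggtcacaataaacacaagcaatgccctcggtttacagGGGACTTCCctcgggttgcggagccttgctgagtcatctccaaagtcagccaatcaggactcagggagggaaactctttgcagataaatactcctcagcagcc
In Cxcl9 the first match, GAAATGGAA, begins 175 bases before the start and the second, GGGATTTCC, begins 42 bases before it. In Cxcl10 the matches are GAAAGTGAA at 213 bases and GGGACTTCC at 103 bases before the start. The interferon letters occur in 7.13% and the NF-kB letters in 1.43% of 32851 promoter windows of the same length. The gamma-activated site motif (TTCNNNGAA), also searched, occurs in 7.02% of the windows and was in none of those of Cxcl9, Cxcl10 and Cxcr3. The Cxcr3 window (chrX:101734148-101734397) held none of the 3 motifs. It overlaps the start of the gene span given above, so it does not lie wholly before that start. A match is a description of the letters only.

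After filtering, 6839 and 7141 cells of the sedentary and 5763 and 4097 of the exercised libraries were kept, with median depths of 3286 to 3749 UMIs (unique molecular identifiers, the counted molecules). The median mitochondrial share was 2.61% and 2.95% in the sedentary libraries and 3.92% and 4.36% in the exercised ones. Of all barcode sequences, 83 occurred in more than 1 library, and 143 kept cells carried one. Each cell was assigned to a library by the number that ends its barcode, read through the order in which the libraries were joined, and every comparison rests on that order. Cells were clustered without the members, and a cluster was named from marker genes, so each class carries the ending -like. Levels are given as CPM, the UMIs of a gene per 1000000 UMIs of its class in a library, with the SD over n = 2 libraries. Log2 changes run from sedentary to exercised, with the SE worked back from the F statistic. The edgeR quasi-likelihood test with Benjamini-Hochberg adjustment was used on sums per library, and a gene passed at an adjusted p under 0.05. The exact permutation test on 2 against 2 libraries cannot go below 0.333. Intervals on shares of cells are exact Clopper-Pearson intervals at 95% and cover counting error only.

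The Cxcl9 level over all kept cells was higher in both exercised libraries, where macrophages held most of it. It stood at 12.4 CPM in Sed 1, 21.8 in Sed 2, 243 in Ex 1 and 294 in Ex 2. Macrophages outside the Kupffer clusters, called other macrophage-like and marked by the complement genes C1qa to C1qc, Spp1 and Ms4a7, held 33.5% and 50.6% of all Cxcl9 UMIs in the sedentary libraries. In the exercised libraries they held 85.3% and 83.6%. Endothelial-like cells held 32.5% and 28.6% in Sed 1 and Sed 2 and 1.28% and 5.82% in Ex 1 and Ex 2. Dendritic cells held 21.5%, 3.08%, 4.58% and 4.36%, so in Sed 1 no class held most of the transcript. Kupffer-like cells held from 0.752% to 5.39% of the Cxcl9 UMIs in any library. B-like and plasma-like cells together held at most 1.16%. Ordered by the median over the 4 libraries, other macrophage-like cells came first of 18 classes at 536 CPM, followed by cDC1-like cells at 268 and endothelial-like cells at 142. The ranges of these neighbours overlapped, as did every neighbouring pair in the Cxcl9 order. The order joins groups that differ: the sedentary mean was 182 CPM in endothelial-like cells, 101 in other macrophage-like and 96.9 in cDC1-like cells, so macrophages came first through the exercised libraries.

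**Figure D1:**
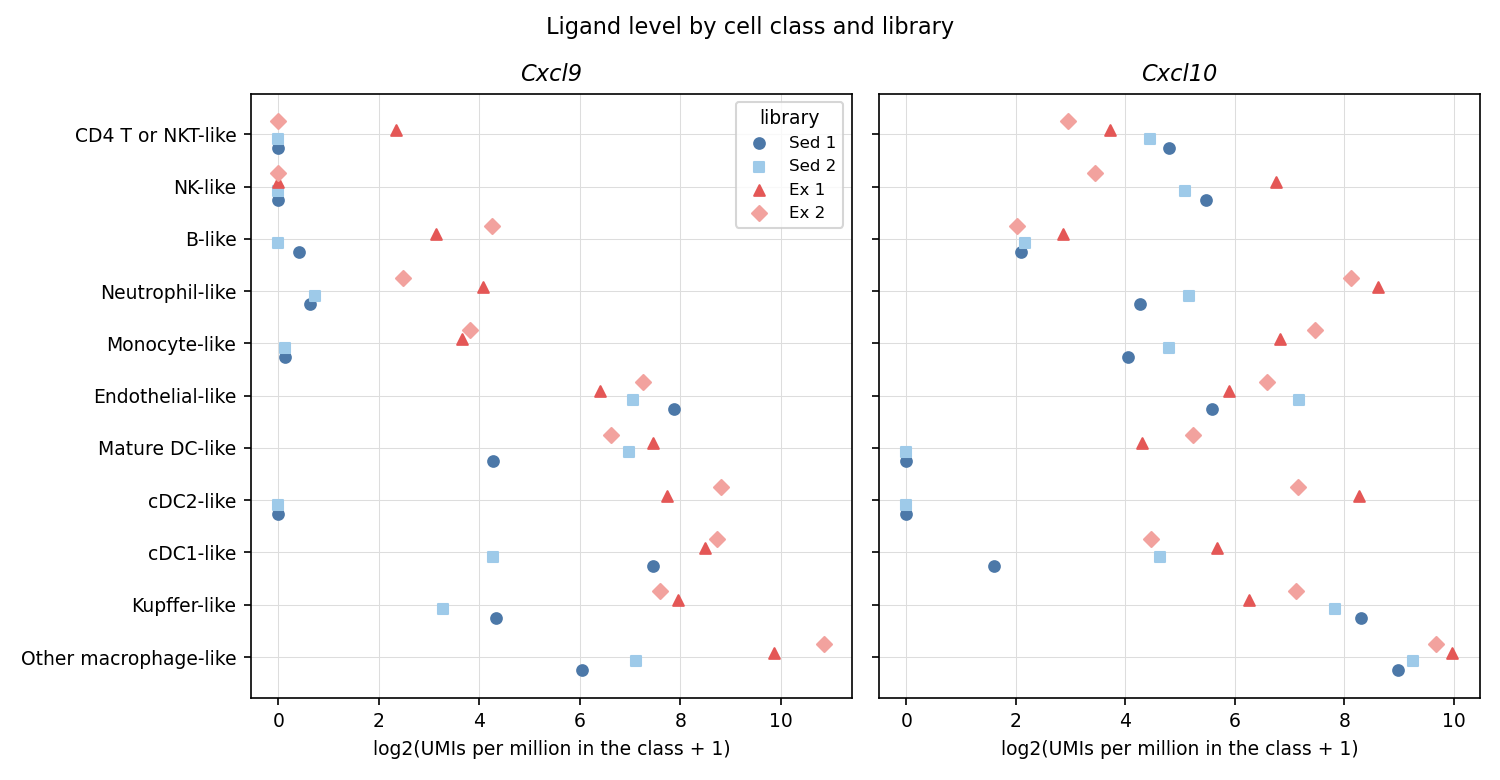
Level of Cxcl9 (left) and Cxcl10 (right) by cell class, as log2(CPM + 1) on the horizontal axis, with 1 point per library (circle Sed 1, square Sed 2, triangle Ex 1, diamond Ex 2). In other macrophage-like cells Cxcl9 runs from 65.1 CPM in Sed 1 to 1867 in Ex 2, while in endothelial-like cells the 2 groups overlap.

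In other macrophage-like cells Cxcl9 stood at 65.1 CPM in Sed 1, 138 in Sed 2, 934 in Ex 1 and 1867 in Ex 2. Both exercised libraries lay above both sedentary ones, with means of 101 ± 51.4 and 1400 ± 660 CPM (SD, n = 2). The log2 change was 3.83 ± 0.53 (SE), with an edgeR adjusted p of 0.0632, so it did not pass. In this class 94 of 9514 genes passed, 0.988% of those tested, and none of the 3 members did, although Cxcl9 and Cxcl10 had unadjusted p-values of 0.00089 and 0.00314. DESeq2 gave Cxcl9 an adjusted p of 5.5e-21. The edgeR adjusted p was 0.00252 without Ex 1, 0.0133 without Ex 2, 0.0709 without Sed 1 and 0.0548 without Sed 2. Many cells carried the transcript: 21 of 250 cells of Sed 1 had a Cxcl9 UMI, 33 of 359 of Sed 2, 308 of 850 of Ex 1 and 177 of 324 of Ex 2. After each cell was thinned to 1000 UMIs, the shares were 3.84%, 4.59%, 23.7% and 37.6%. In Sed 2 a single cell held 136 of the 394 UMIs, whereas in the exercised libraries it took 59 cells to reach 50% of 11096 UMIs. Exercised cells with Cxcl9 carried more of the MHC class II genes than the cells without (18164 against 11549 CPM for H2-Aa, H2-Ab1 and H2-Eb1 summed). They also carried more of 7 other interferon gamma targets, Gbp2 among them (1748 against 1033 CPM for the 7 summed). Most of this class in each exercised library, and in Sed 1, came from a cluster led by Cxcl9, Arg1 and Spp1, with 221, 181, 744 and 296 cells. Inside that cluster alone Cxcl9 changed by 3.72 ± 0.62 on the log2 scale (edgeR adjusted p = 0.0842).

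In Kupffer-like cells (Kupffer cells are the liver's own macrophages) Cxcl9 sat in few cells. Its level was 19.2 CPM in Sed 1, 8.70 in Sed 2, 247 in Ex 1 and 193 in Ex 2. Both exercised libraries were above both sedentary ones, and the log2 difference, which chose the member, was 4.22 ± 0.40 (SE). In Sed 1, 12 of 314 cells had a Cxcl9 UMI, which is 3.82% (interval 1.99 to 6.58%). In Sed 2 it was 24 of 1043 cells, 2.30% (1.48 to 3.40%). In Ex 1 it was 45 of 461 cells, 9.76% (7.21 to 12.8%), and in Ex 2 9 of 104 cells, 8.65% (4.03 to 15.8%). Most exercised Kupffer-like cells thus had no Cxcl9 UMI, at median depths of 916 and 1184 UMIs. T-like and NK-like cells, which should lack the gene, had a UMI in 0.108%, 0.0989%, 0.975% and 0.254% of their cells at median depths of 2829 to 4492. An unnamed cluster of T and NK cells led by Apoe and C1qb was left out of these shares. Thinned to 1000 UMIs, with the shallower cells left out (182, 698, 210 and 62 cells remaining), the Kupffer-like shares were 1.41%, 1.53%, 9.50% and 10.1%.

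The UMIs were spread unevenly over the Kupffer-like cells that had any. In the sedentary libraries 36 of 1357 cells held 64 UMIs, 20 of these cells had exactly 1, and no cell had more than 8. In the exercised libraries 54 of 565 cells held 246 UMIs, 40 of them had at least 2, and the highest had 21. There, 11 cells held 50% of the UMIs and 35 cells held 90%. The class was made of a cluster with few UMIs per cell (median 873, with 233, 593, 410 and 79 cells) and a cluster with many (median 8800, with 81, 450, 51 and 25 cells). In the first, Cxcl9 stood at 42.2, 44.1, 405 and 226 CPM, and in the second at 10.8, 2.67, 3.16 and 163 CPM. In the deeper cluster, then, Ex 1 lay within the sedentary range and Ex 2 did not, and 15 of its 20 UMIs in Ex 2 were in 1 cell.

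**Figure D2:**
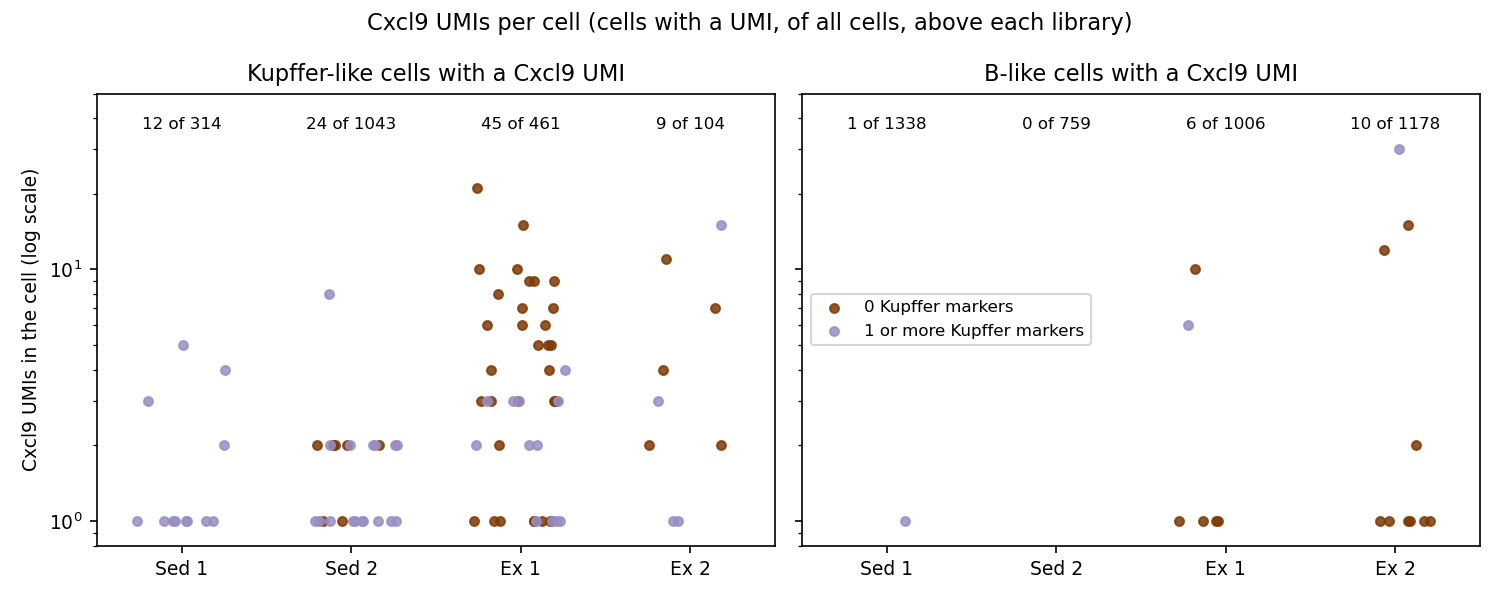
Cxcl9 UMIs in each Kupffer-like cell (left) and B-like cell (right) that had at least 1, on a log axis, by library, with 1 point per cell and brown for cells with none of the 9 Kupffer markers. The numbers on top give these cells out of all cells of the class. Most exercised Kupffer-like cells with many UMIs are brown, and only 6 exercised B-like cells exceed 1 UMI.

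Most of the exercised Kupffer-like Cxcl9 lay in cells that showed no Kupffer marker at all. The 9 markers were Clec4f, Vsig4, Timd4, Cd5l, Marco, C6, Folr2, Cd163 and Slc40a1. Exercised cells with 0 of them numbered 140 of 565, and 38 of these held 200 of the 246 UMIs (81.3%), at 1092 CPM. The 318 exercised cells with 3 or more markers had 28 UMIs in 9 cells, at 38.5 CPM. By library, the cells with 3 or more markers stood at 15.2 CPM in Sed 1, 3.90 in Sed 2, 15.1 in Ex 1 and 100.1 in Ex 2, so the groups overlapped and Ex 2 alone stood out. Cells with 0 markers stood at 0, 126, 1051 and 1484 CPM. Their share of the class was 8.92% in Sed 1, 7.67% in Sed 2, 28.4% in Ex 1 and 8.65% in Ex 2, so it was high in Ex 1 alone.

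**Figure D3:**
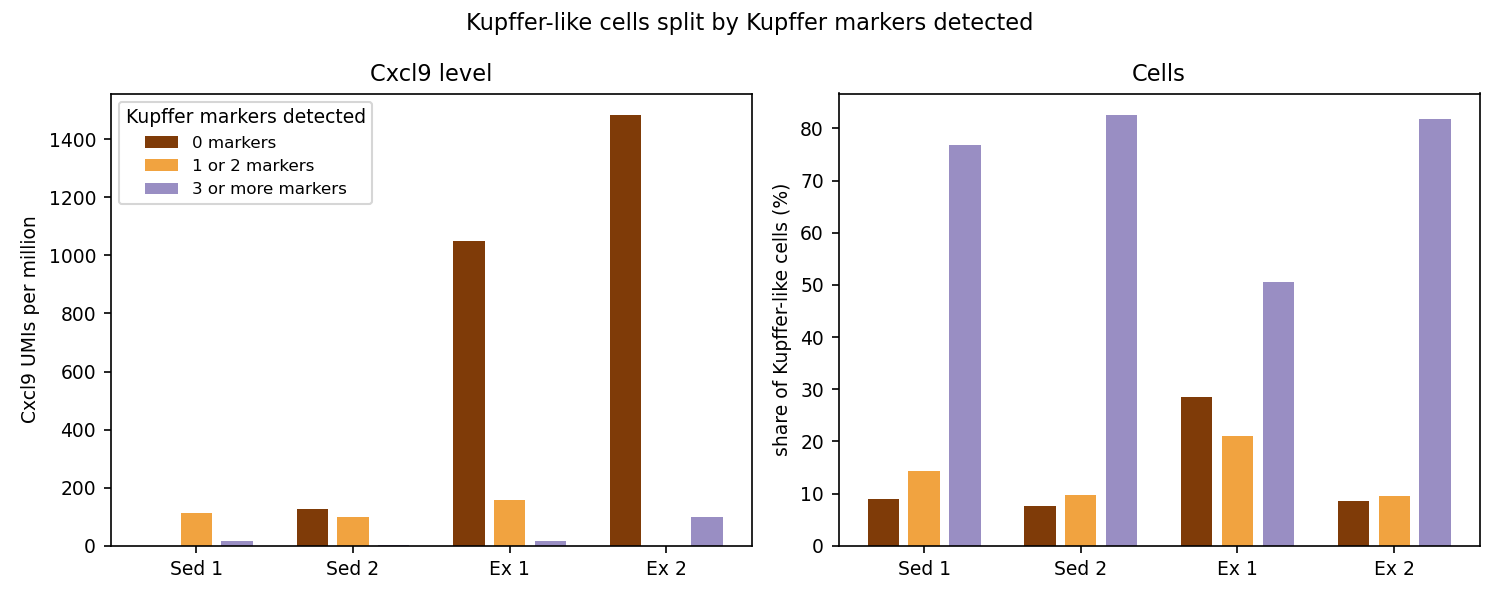
Kupffer-like cells split by how many of the 9 Kupffer markers they showed, by library, with the Cxcl9 level in CPM on the left and the share of cells on the right. Each bar is 1 library. The bars for 0 markers reach 1051 CPM in Ex 1 and 1484 in Ex 2, and those for 3 or more markers reach at most 100.1.

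The Kupffer-like cells with Cxcl9 differed from the rest of their class in more than that gene. In the exercised libraries, the 9 Kupffer markers summed to 6656 CPM in the 54 cells with Cxcl9 and to 15626 CPM in the 511 without. MHC class II genes stood at 11743 against 7172 CPM, the 7 interferon gamma targets at 809.5 against 496 CPM, and neutrophil markers at 3028 against 567 CPM. Most of these cells came from Ex 1. There, 12 of 45 cells with Cxcl9 (26.7%) had a neutrophil marker UMI, against 20.9% of those without. In Ex 2, with 9 such cells, Kupffer markers stood at 15968 against 19400.1 CPM. Only 4 of these 9 cells had a Kupffer marker UMI, against 91 of the 95 without Cxcl9. MHC class II genes stood there at 6238 against 5609 CPM and the interferon gamma targets at 629.5 against 733 CPM. Neutrophil markers stood there at 229 against 54.1 CPM. C1q genes were at similar levels, 12493 and 15208 CPM, and every cell with Cxcl9 had a C1q UMI. Other choices of clustering moved these cells. With doublets kept, 45 of the 54 fell into other macrophage-like clusters and 9 into Kupffer-like ones, and at resolution 2 it was 50 and 4, whereas at resolution 0.5 all 54 were Kupffer-like. The 38 cells with 0 markers were other macrophage-like in both of the first settings. Counting instead every kept cell of any class with 3 or more Kupffer markers, Cxcl9 stood at 52.8, 7.78, 203 and 378 CPM, a log2 difference of 3.29 ± 1.25 (SE). Of the 466 exercised UMIs of that set, 352 were in cells of other macrophage-like clusters, 55 in endothelial-like and 28 in Kupffer-like cells. Of the 144 sedentary ones, 84 were in endothelial-like cells. How far the cell names set the Kupffer-like result was not tested beyond these counts.

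In B-like cells, named from Cd79a, Cd79b, Ms4a1 and Pax5 among others, Cxcl9 sat in fewer cells still. Its level was 0.328 CPM in Sed 1 (1 UMI), 0 in Sed 2, 7.82 in Ex 1 and 18.1 in Ex 2. Both exercised libraries were higher, and the ratio of exercised to sedentary was 62.0, with a 95% counting interval of 10.8 to 2476 because the sedentary side rests on a single UMI. The cells with a UMI were 1 of 1338 in Sed 1, 0 of 759 in Sed 2 (at most 0.485%), 6 of 1006 in Ex 1 and 10 of 1178 in Ex 2. As shares the exercised values were 0.596% (0.219 to 1.29%) and 0.849% (0.408 to 1.56%), at median depths of 2306 and 2720 UMIs. T-like and NK-like cells, which are deeper, had 0.975% in Ex 1 and 0.254% (0.0308 to 0.915%) in Ex 2. Thinned to 1000 UMIs, B-like cells had 0.378% and 0.428% and T-like and NK-like cells 0.244% and 0.0531% in Ex 1 and Ex 2. These shares rest on few cells, and the levels over all T-like and NK-like cells were 3.63 and 0.476 CPM. The 2 sides were not filtered alike, since T and NK cells were clustered again and B-like cells were not. An unnamed cluster led by Apoe and C1qb was thereby left out of the T-like and NK-like cells. It had a Cxcl9 UMI in 10 of 61 cells in Ex 1 and 3 of 15 in Ex 2. A background filtered like the B-like cells was not measured. The 16 exercised B-like cells held 85 UMIs, and 10 of them had exactly 1. The 4 highest, with 30, 15, 12 and 10, held 67 (78.8%). The first 3 of these carried 31, 15 and 12 C1q UMIs, with doublet scores of 0.163, 0.0963 and 0.123 against a median of 0.0317 in B-like cells without Cxcl9. The fourth, from Ex 1, had 0 C1q UMIs and a doublet score of 0.0415. Over the 16 cells, macrophage markers summed to 2629.8 CPM against 475 in the others, C1q genes to 1268 against 38.4 CPM, and B markers to 8139.9 against 10271 CPM. The part of macrophage RNA in the B-like result was not tested.

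Cxcl9 was also measured in other myeloid classes and in endothelial-like cells. In monocyte-like cells it rested on 1 UMI in each sedentary library (0.0991 and 0.0952 CPM), against 43 UMIs in Ex 1 (11.6 CPM) and 30 in Ex 2 (13.2 CPM). It rose in the exercised libraries by a ratio of 126 (95% counting interval 33.6 to 1058), with an edgeR adjusted p of 0.000978 that became 0.0571 without Ex 1. In this class 194 of 10163 genes passed, 1.91% of those tested, and both tested members were among them. Only 13 of 562 and 5 of 293 exercised monocyte-like cells carried it. Of its UMIs, 1 cell held 16 of 43 in Ex 1 and 19 of 30 in Ex 2. In neutrophil-like cells it stood at 0.554, 0.653, 15.8 and 4.59 CPM, a log2 change of 3.95 ± 0.78 that did not pass edgeR (adjusted p = 0.0549). DESeq2 gave 0.0109, and without Ex 1 the gene was not tested.

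Dendritic cells, which carry antigen to T cells, were few. In cDC1-like cells Cxcl9 stood at 175, 18.4, 360 and 423 CPM from 44, 62, 37 and 18 cells, with both exercised libraries higher. Only 4, 3, 10 and 3 of these cells had a UMI. A single cell held 69 of 87 UMIs in Sed 1 and 8 of 10 in Sed 2. In Ex 1 and Ex 2 it was 57 of 144 and 65 of 100. In cDC2-like cells Cxcl9 had 0 UMIs in the 6 and 101 sedentary cells. In the 89 and 38 exercised cells it stood at 214 and 447 CPM. That was at least 71.8-fold higher at a floor of 3 counts over the sedentary group. Only 15 and 8 exercised cells had a UMI. The 4 highest cells held 105 of 148 UMIs in Ex 1 and 153 of 159 in Ex 2. A cluster with 2 and 26 sedentary and 73 and 29 exercised cells and one with 4, 75, 16 and 9 made up the cDC2-like class. With the members among the variable genes only 14 and 11 exercised cells took that name. The dendritic classes had too few cells in some library for a test.

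Endothelial-like cells, named from Stab2, Clec4g and Kdr among others, had Cxcl9 in every library. Endothelial cells do not carry CD45, so the enrichment would remove them, and those captured are a residue whose share here is not their share in the liver. The levels were 233, 132, 83.7 and 151 CPM, and 42 of 99, 92 of 282, 39 of 335 and 167 of 639 cells had a UMI. The groups overlapped, and the log2 change of -0.75 ± 0.44 did not pass edgeR (adjusted p = 0.387). In this class 953 of 9002 genes passed, 10.6% of those tested, and neither tested member was among them by edgeR or DESeq2. Different clusters made up the class in the 2 groups: a cluster led by Plpp3 and Cyp26b1 held 1 and 12 sedentary but 137 and 342 exercised cells, and one led by Abcc9 held 60 and 176 sedentary but 1 and 4 exercised cells.

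Cxcl10 was held mainly by macrophages, with monocyte-like and neutrophil-like cells beside them. Other macrophage-like cells held 51.9%, 40.1%, 74.7% and 60.7% of its UMIs, at 503, 612, 1006 and 820 CPM. Both exercised libraries were higher, by 0.76 ± 0.19 on the log2 scale, but the change did not pass edgeR (adjusted p = 0.106). In the order of classes this one came first at a median of 716 CPM, and its range did not meet that of the second, Kupffer-like cells at 182. In Kupffer-like cells Cxcl10 went the other way from Cxcl9, at 317 CPM in Sed 1, 226 in Sed 2, 75.5 in Ex 1 and 139 in Ex 2. That log2 difference was -1.38 ± 0.33, given as a description. The clusters of the class did not move alike: in the one with few UMIs Cxcl10 stood at 45.5, 61.2, 93.5 and 69.5 CPM, higher in both exercised libraries, and in the one with many it stood at 417, 254, 47.4 and 203 CPM. The second held 531 of 1357 sedentary but 76 of 565 exercised cells. Among the cells with 3 or more Kupffer markers in any class it was -0.11 ± 0.34, and with clusters at resolution 0.5 it was 0.050. Kupffer-like cells held 17.8% and 25.0% of the Cxcl10 UMIs in the sedentary and 0.707% and 0.891% in the exercised libraries.

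Cxcl10 rose in monocyte-like and neutrophil-like cells. In monocyte-like cells it stood at 15.5, 26.9, 113 and 176 CPM, a log2 change of 2.77 ± 0.30 (edgeR adjusted p = 0.0124). The adjusted p was 0.115 without Ex 1 and 0.161 without Ex 2. The cluster mix differed: a cluster led by Chil3 and Vcan had 1075 and 891 sedentary but 57 and 40 exercised cells, and one led by Tppp3 and Ace had 180, 533, 505 and 253. Within the second alone, Cxcl10 changed by 1.80 ± 0.37 and did not pass (adjusted p = 0.115), while Cxcl9 changed by 5.74 ± 0.70 (adjusted p = 0.00434). In neutrophil-like cells Cxcl10 stood at 18.1, 34.6, 389 and 279 CPM, a log2 change of 3.49 ± 0.41 (edgeR adjusted p = 0.0239, and 0.162 without Ex 1). In this class 26 of 7479 genes passed, 0.348% of those tested, among them 1 of the 2 tested members. Here too a cluster led by Acod1 and Hcar2, with 394, 419, 445 and 291 cells, carried most of it, at 140, 126, 757 and 414 CPM, and another led by Retnlg had 1485 and 706 sedentary but 44 and 25 exercised cells. Within the first, the change was 2.19 ± 0.37 (edgeR adjusted p = 0.0643). In endothelial-like cells Cxcl10 stood at 47.2, 143, 58.6 and 95.2 CPM, with groups that overlapped (log2 change -0.52 ± 0.53, edgeR adjusted p = 0.639). In cDC2-like cells Cxcl10 had 0 UMIs in both sedentary libraries and 309 and 141 CPM in the exercised ones. That was at least 61.8-fold higher by the same floor. Only 16 and 7 exercised cells had a UMI. The 4 highest cells held 148 of 214 UMIs in Ex 1 and 45 of 50 in Ex 2.

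In other macrophage-like cells the ligands often came from the same cells. Among other macrophage-like cells with Cxcl9, the share that also had Cxcl10 was 38.1% in Sed 1, 72.7% in Sed 2, 55.2% in Ex 1 and 51.4% in Ex 2. In the cells without Cxcl9 it was 23.6%, 31.3%, 42.8% and 49.7%. The share was higher beside Cxcl9 in each library, and nearly level in Ex 2. Among Kupffer-like cells with Cxcl9 it was 25.0%, 20.8%, 26.7% and 33.3%, against 16.9%, 17.8%, 3.61% and 12.6% in the others. In endothelial-like cells it was 14.3%, 20.7%, 5.13% and 21.6% beside Cxcl9 and 1.75%, 13.7%, 7.43% and 7.84% without, so lower beside Cxcl9 in Ex 1. Cells with a UMI are the deeper ones on average, and depth was not matched in these shares.

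**Figure D4:**
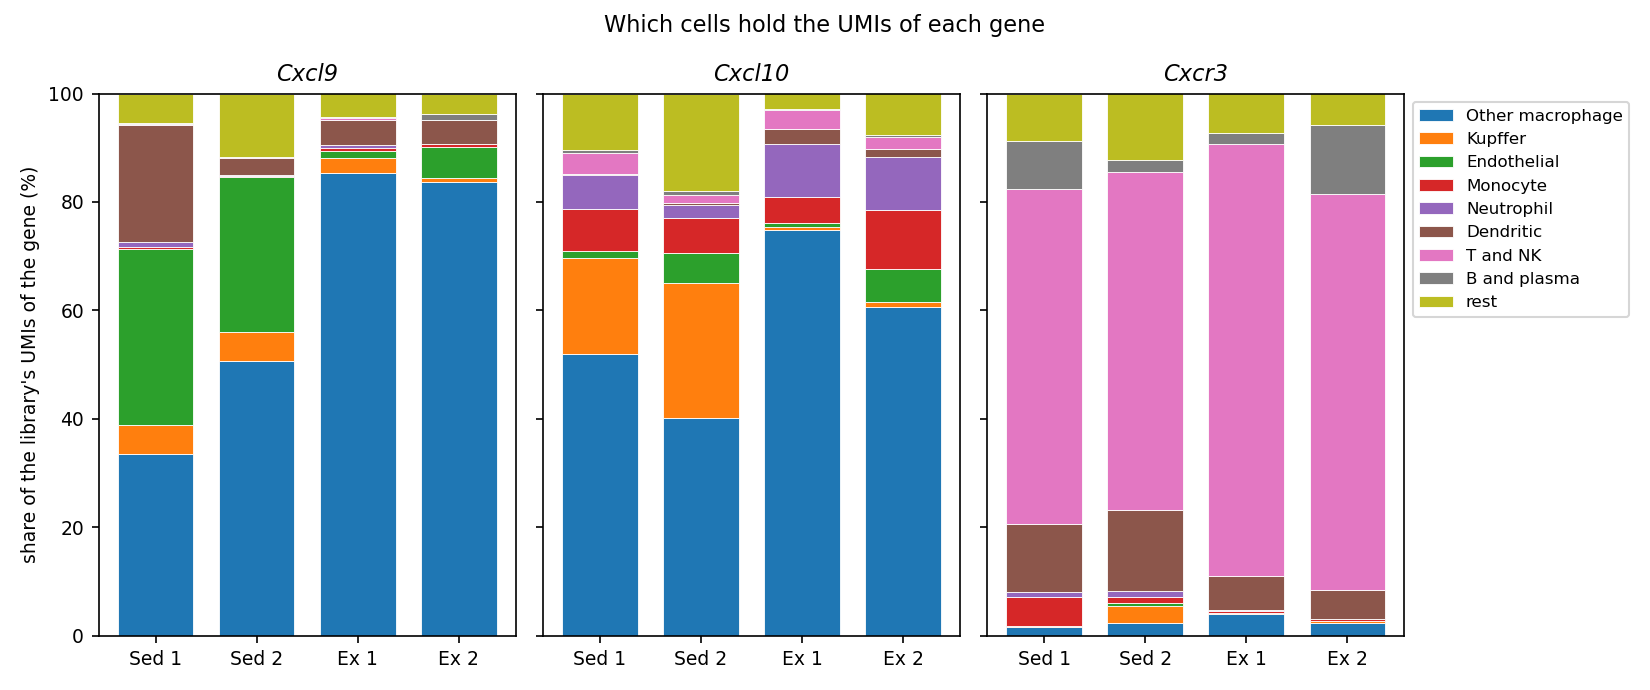
Share of each library's UMIs of Cxcl9, Cxcl10 and Cxcr3 (vertical axis, percent) held by each group of cell classes, with 1 stacked bar per library. Other macrophage-like cells (blue) hold 85.3% and 83.6% of the Cxcl9 UMIs in Ex 1 and Ex 2, and T-like and NK-like cells (pink) hold 61.9% to 79.7% of the Cxcr3 UMIs.

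Most of the receptor lay in lymphocytes, which held few of the ligands' UMIs. T-like and NK-like cells together held 61.9% and 62.3% of the Cxcr3 UMIs in the sedentary and 79.7% and 73.1% in the exercised libraries. The highest level was in a T cell class that could not be split between CD4 T and NKT cells and is called CD4 T or NKT-like, led by Mmp9, Il4, Cd40lg and Zbtb16. It stood at 127 CPM in Sed 1, 244 in Sed 2, 236 in Ex 1 and 242 in Ex 2, and 43.9%, 44.1%, 42.0% and 53.1% of its cells had a UMI. Treg-like cells, regulatory T cells with Foxp3, followed at 215, 125, 146 and 135 CPM. ILC1-like cells, tissue-resident relatives of NK cells, stood at 121, 112, 150 and 193 CPM. NK-like cells were lower, at 59.2, 51.1, 66.5 and 59.3 CPM. CD4 T-like cells stood at 58.2 and 59.8 CPM in the sedentary libraries, from 14 and 16 cells, and at 151 and 122 CPM in the exercised ones, from 111 and 59 cells. CD8 T-like cells stood at 39.6 and 60.8 CPM in Sed 1 and Sed 2, and only 6 and 10 such cells were found in Ex 1 and Ex 2. In the order of the 18 classes with at least 10 cells in each library, the ranges of neighbours overlapped down to the tenth. After it Cxcr3 dropped to a median of 6.27 CPM in B-like cells. Plasma-like cells, too few in Sed 1 for that order, had a median of 37.1 CPM and ranged from 4.15 to 103.

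Dendritic cells also carried the receptor. In cDC1-like cells Cxcr3 stood at 76.6, 94.0, 77.6 and 67.7 CPM, and 23 of 44, 32 of 62, 17 of 37 and 10 of 18 cells had a UMI. These cells hold many UMIs (medians of 9078 to 12624), which raises a share of cells but not the CPM. In pDC-like cells, the makers of type I interferon, it was 96.4, 60.8, 60.7 and 36.3 CPM. Other macrophage-like cells, the main holders of the ligands, had 2.85 to 6.40 CPM, neutrophil-like cells at most 1.63, and endothelial-like cells had a UMI in 2 of 282 cells in Sed 2 and in no cell of the other libraries. The last 2 classes set the background against which the other levels stand. Among the 18 classes, cDC1-like cells alone had at least 18.4 CPM of Cxcl9 and 67.7 of Cxcr3 in every library. Their Cxcl9 sat in few cells, as given above.

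**Figure D5:**
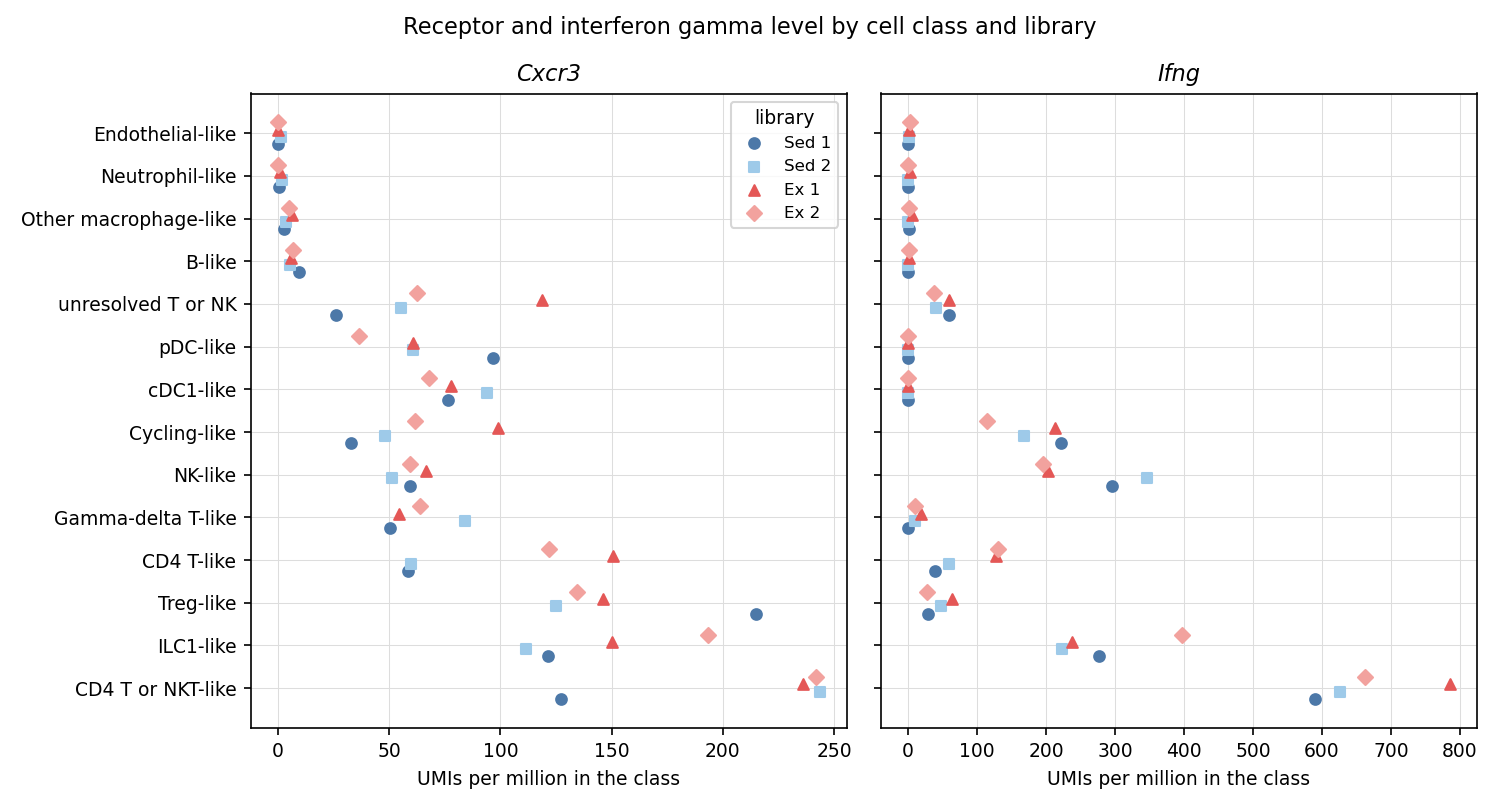
Level of Cxcr3 (left) and of interferon gamma, Ifng (right), in CPM by cell class, with 1 point per library (circle Sed 1, square Sed 2, triangle Ex 1, diamond Ex 2). CD4 T or NKT-like cells are at the bottom with the highest levels of both, and cDC1-like and pDC-like cells have Cxcr3 but no Ifng UMI.

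No tested class showed a change of Cxcr3 that passed. In CD4 T or NKT-like cells the log2 change was 0.22 ± 0.29 (edgeR adjusted p = 0.832), in ILC1-like cells 0.42 ± 0.28 (adjusted p = 0.610) and in NK-like cells 0.11 ± 0.34 (adjusted p = 0.937). Their unadjusted p-values were 0.470, 0.145 and 0.752, and DESeq2 called none of them. In these classes 5 of 4151 genes (0.12%), 6 of 4132 (0.145%) and 9 of 4725 (0.19%) passed, so few genes of any kind were called there. In other macrophage-like cells Cxcr3 changed by 0.88 ± 0.45 at levels near background (edgeR adjusted p = 0.388). Over all T-like and NK-like cells together Cxcr3 stood at 44.1, 77.2, 120 and 99.0 CPM, and 18.3%, 20.8%, 38.1% and 34.4% of cells had a UMI. That sum mixes classes whose cell numbers differ, such as CD8 T-like cells with 239 and 420 sedentary but 6 and 10 exercised cells. T or NK cells left unresolved between classes stood at 26.1, 55.2, 119 and 62.7 CPM. That level joins unlike clusters, among them the one led by Gzmm and Ly6c2 given above. Another, led by Igfbp4 and Dapl1, stood at 6.16, 7.06, 20.7 and 3.92 CPM.

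Several classes with Cxcr3 also held Ifng, the chief inducer of Cxcl9, but not all of them did. T-like and NK-like cells held 93.8%, 80.6%, 87.6% and 86.2% of the Ifng UMIs. CD4 T or NKT-like cells had the highest level, at 590, 627, 785 and 662 CPM, and their range did not meet that of any other class in the order. Treg-like cells, second for Cxcr3, had a median of 38.7 CPM of Ifng, and cDC1-like and pDC-like cells had none. Among CD4 T or NKT-like cells, 55.6%, 63.3%, 55.9% and 60.9% of those with Cxcr3 also had Ifng. Of those without Cxcr3 it was 47.8%, 55.3%, 50.0% and 59.0%. NK-like cells stood at 296, 347, 203 and 196 CPM, lower in both exercised libraries, but the log2 change of -0.79 ± 0.22 did not pass edgeR (adjusted p = 0.204). In ILC1-like cells the change was 0.19 ± 0.26 (adjusted p = 0.852) and in CD4 T or NKT-like cells 0.11 ± 0.28 (adjusted p = 0.928). So per cell class, no tested receiver had more Ifng by this test.

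Around the members stood a list of 60 genes of the pathway, from the interferon gamma route to the ligands through the receptor's signalling to other chemokines of the same cells. In other macrophage-like cells 3 of 51 tested genes passed edgeR, all higher, where 0.988% of all genes passed, and the list's median log2 change was 0.47 against -0.01 over all genes. Gbp2, an interferon-induced GTPase, stood at 123, 145, 456 and 744 CPM, a change of 2.21 ± 0.26 (adjusted p = 0.0143). Igtp, an immunity-related GTPase, went from 59.9 and 72.7 to 141 and 158 CPM (1.22 ± 0.20, adjusted p = 0.0374), and Stat4, which relays interleukin 12 signals, from 1.90 and 3.15 to 12.8 and 15.7 CPM (2.47 ± 0.39, adjusted p = 0.0343). These calls depended on the cells and libraries used. At resolution 2 no gene passed edgeR in this class (0 of 9405, with 1101 at an unadjusted p under 0.05), and Gbp2 had an adjusted p of 0.143. Igtp did not pass edgeR without Ex 1 (adjusted p = 0.0517) or without Ex 2 (0.153). Stat4 did not pass without Ex 2 (adjusted p = 0.0916), with a stricter cell filter (0.0566) or with doublets kept (0.0835).

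In monocyte-like cells 1 of 46 passed, with a list median of 0.26, a share near the 1.91% of all genes. It was Ciita, the master regulator of MHC class II genes, at 0.892 and 3.05 CPM against 25.2 and 25.4 (3.68 ± 0.44, edgeR adjusted p = 0.0117, and 0.262 without Ex 1 and 0.255 without Ex 2). In neutrophil-like cells 2 of 44 passed in opposite directions, against 0.348% of all genes, with a list median of -0.00. Gbp5, another interferon-induced GTPase, rose from 4.02 and 5.87 to 48.3 and 46.7 CPM (3.11 ± 0.32, edgeR adjusted p = 0.00334, and 0.105 without Ex 1). Irf7, which drives type I interferon genes, fell from 399 and 357 to 155 and 118 CPM (-1.66 ± 0.25, edgeR adjusted p = 0.0301, and 0.150 without Ex 1 and 0.0664 without Ex 2).

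In endothelial-like cells 8 of 43 passed edgeR, all lower, at a list median of -0.27, in the class where 10.6% of all genes passed. The 4 with the greatest size of change were Ackr1, an atypical receptor that binds chemokines without signalling (112 and 139 against 33.5 and 28.1 CPM, -2.22 ± 0.22, adjusted p = 0.000137), Iigp1 (-1.94 ± 0.39, adjusted p = 0.0352), the peptide transporter Tap1 (-1.52 ± 0.28, adjusted p = 0.00572) and Rgs1, which dampens chemokine receptor signals (-1.52 ± 0.27, adjusted p = 0.00443). Iigp1 did not pass edgeR without Ex 1 (adjusted p = 0.0968) or Ex 2 (0.129), nor Rgs1 without Ex 2 (0.0950). The clusters that made up this class differed between the groups, as given above, and their part in these changes was not tested.

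In NK-like cells 2 of 41 passed edgeR, against 0.19% of all genes, both lower: Rgs1, from 678 and 657 to 342 and 332 CPM, and Ccl5, another T cell attractant, from 20087 and 26668 to 10799 and 13658 CPM. Their changes were -1.09 ± 0.21 and -1.03 ± 0.19, both at an adjusted p of 0.0253. Without Ex 2 the edgeR adjusted p was 0.0854 for Rgs1 and 0.338 for Ccl5, and it was 0.0990 for Rgs1 without Sed 1 and 0.304 for Ccl5 without Ex 1. In ILC1-like cells 1 of 41 passed, against 0.145% of all genes. It was Irf7, from 208 and 148 to 56.7 and 24.6 CPM (-2.23 ± 0.37, edgeR adjusted p = 0.00631). In CD4 T or NKT-like cells 0 of 40 passed in edgeR and 0 in DESeq2, with 8 at an unadjusted p under 0.05.

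Across the 9 named classes that had 30 cells or more in each library, the genes whose class pattern was most like that of each member were found among 9937 genes by Pearson's r of the mean log2(CPM + 1). For Cxcl9 they were Cxcl16 (r = 0.98), Mmp14 (0.98), Dab2 (0.98), Zmynd15 (0.96) and Rab3il1 (0.96). For Cxcl10 they were Ifit2 (0.95), Ldha (0.95), Calm3 (0.93), Tmbim6 (0.93) and Ifih1 (0.92), of which Ifit2 and Ifih1 are interferon-induced genes. For Cxcr3 they were Fnbp1 (0.99), Dcaf15 (0.98), Spin2c (0.97), Fam189b (0.97) and Pglyrp2 (0.97). Between Cxcl9 and Cxcl10 r was 0.76, and with Cxcr3 it was -0.61 for Cxcl9 and -0.50 for Cxcl10. These are descriptions over 9 points that share libraries, and other genes with like patterns are to be found in any such search.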

How the data were processed

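The values deposited by the authors are whole UMI counts, one for each gene in each barcode, made with a Cell Ranger aggregation (7.0.0 per the submitters' processing notes, 6.1.1 per the file headers) on mm10/GRCm38. Whether that step equalised depth between libraries is not given in the sources used here. Of 51140 columns, 28525 carry a barcode and 22615 were not used. The number after each barcode was mapped to a library through the order of the aggregation table, and the block ends lay 6, 1 and 33 cells from breaks in the matrix, which limits every comparison. The libraries held 23918964 to 41027638 UMIs.

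A cell was kept if it showed 200 genes or more and no more than 10% mitochondrial UMIs. Scrublet in scanpy 1.11.5 marked 3.04%, 0.0132%, 0.0165% and 0.0236% of cells, so the highest scores at 0.8% per 1000 cells were removed instead (422, 462, 293 and 144 cells). Leiden clustering (leidenalg 0.10.2, resolution 1) used 2000 variable genes without the members, 30 components and 15 neighbours. T, NK and dendritic cells were clustered again. A cluster took the class with the best marker score (at least 0.5, and 3 markers each found in 10% of its cells). Where the best and the second class were both lymphocyte classes less than 0.2 apart, the cluster took both names. No margin was asked elsewhere. A cluster stayed unnamed where other classes had more markers among its 10 leading genes than its own class. UMIs were summed per library and class of at least 30 cells. The main test was edgeR's quasi-likelihood test (version 4.0.16 under R 4.3.3, robust fit, filterByExpr and TMM), with DESeq2 1.42.0 beside it. On simulated data for other macrophage-like cells (9298 genes tested), the test called 42 of 100 genes given a 2-fold change, 99 of 100 given a 4-fold change and 3 of 9314 given none. The changes were planted only in genes with a mean above 10 CPM. Counts were drawn at the trended dispersion, without a spread particular to each gene. The counts called thus do not describe genes of lower level or of wider spread between libraries.

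The members and lists were chosen with earlier results of these data known. The text names the members, in each tested class up to 4 pathway genes that passed, Ifng in the receivers, and the 5 genes most like each member in class pattern. The rule named 1 further pathway gene that is not reported here. Alternatives were a stricter cell filter (500 genes, 5%), doublets kept, resolutions 0.5 and 2, members among the variable genes, no low-count filter, DESeq2, a replicate block, each library left out, thinning to 500 or 2000 UMIs, at least 2 UMIs, and cells by Kupffer markers. A Kupffer-like class without its shallow cluster, and 1 cluster of a class alone, were chosen after seeing the data.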

Additional observations from a re-analysis of the deposited data

How the results depend on the processing

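Of 443 alternative values over 37 results, 338 kept their direction and side of the threshold (or moved by less than the spread), 36 no longer passed, 19 newly passed, 40 moved and 10 reversed. The cause of each move was not tested. In Kupffer-like cells the log2 difference of Cxcl9 was 2.28 with doublets kept, 3.29 in cells with 3 or more Kupffer markers and 3.54 to 4.73 with a library left out, and that of Cxcl10 was -2.11 with doublets kept, 0.050 at resolution 0.5, -2.03 at resolution 2, -0.11 by markers and -1.75 to -0.98 with a library left out. In B-like cells Cxcl9 ran from 4.76 to 8.07 with a library left out. Cxcl9 in other macrophage-like cells passed without the low-count filter (3.83), in DESeq2 (3.84) and without either exercised library (range 3.26 to 4.46). Cxcl10 there passed without the filter (0.77) and without Sed 2 (range 0.62 to 0.91). In monocyte-like cells Cxcl10 did not pass with the members among the variable genes (2.72), in 1 cluster (1.80) or without an exercised library (2.45 to 3.18), and Cxcl9 did not without Ex 1 (6.63 to 6.83). In neutrophil-like cells Cxcl9 passed with the stricter cell filter (3.82), without the low-count filter (3.84), in DESeq2 (3.98) and in each fit without a library that tested it (3.71 to 4.56), while Cxcl10 did not in 1 cluster (2.19) or without Ex 1 (3.02 to 4.02). In endothelial-like cells Cxcl9 passed without the low-count filter (-0.71) and without Sed 2 (-1.28 to -0.24), and Cxcl10 passed with the stricter cell filter (-0.85) and without Sed 1, and reversed without Sed 2 (-0.97 to 0.50). Reversals among values that did not pass were Cxcl10 in NK-like cells without Ex 1 (-2.01 to 1.44), Cxcr3 in NK-like cells without Sed 2 (-0.052 to 0.24) and in CD4 T or NKT-like cells without Sed 1 (-0.067 to 0.66). In NK-like cells Ifng was lower in every alternative that gave a value, and it newly passed in 1 of them. Ifng ran from -0.21 to 0.47 with a library left out in ILC1-like cells. In CD4 T or NKT-like cells it was -0.38 (stricter filter), -0.0093 (doublets kept) and -0.0070 to 0.26 with a library left out. By edgeR adjusted p, Ciita (0.0574) and Iigp1 (0.176) did not pass with the members among the variable genes, nor Gbp5 (0.0743) and Irf7 (0.160) in 1 neutrophil-like cluster, Rgs1 in endothelial-like cells with the stricter cell filter (0.0975), and Ccl5 with doublets kept (0.147) or at resolution 0.5 (0.260). The 17 pathway calls became 30 with doublets kept, 28 at resolution 2, 50 without the low-count filter and 10 to 62 with a library left out (10 without Ex 2, 62 without Sed 2).

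The thinned share of Kupffer-like cells with Cxcl9, averaged over libraries, was 1.47% in the sedentary and 9.80% in the exercised group, given as a description. Within the cluster of many UMIs it was 1.03% and 0.328% in Sed 1 and Sed 2 and 0.631% and 8.25% in Ex 1 and Ex 2. The sedentary share was 1.26% with doublets kept, 1.21% at resolution 2, 1.26% and 1.71% thinned to 500 and 2000 UMIs, 3.06% not thinned, 1.21% at 2 or more UMIs, 1.69% by markers and 0.681% without the cluster of few UMIs. The exercised share was 2.05% with the stricter filter, 2.60% with doublets kept, 8.61% and 2.20% at resolutions 0.5 and 2, 8.43% with the members among the variable genes, 6.23% and 8.29% thinned to 500 and 2000 UMIs, 9.21% not thinned, 6.95% at 2 or more UMIs, 6.88% by markers and 4.44% without the cluster of few UMIs. The exercised B-like share of 0.403% became 0.474% with the stricter filter, 0.353% at resolution 2, 0.267% and 0.614% thinned to 500 and 2000 UMIs, 0.723% not thinned and 0.269% at 2 or more UMIs.

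With the replicate block, Cxcl9 passed in other macrophage-like (3.85) and neutrophil-like cells (4.06), the pathway calls rose to 41, and Igtp and Stat4 in other macrophage-like cells did not pass (edgeR adjusted p of 0.0614 and 0.0633). Samples of the same number deviated together with r of -0.04 to 0.16 over genes, and 2 pairs do not show that the numbers pair the samples. Some settings gave no value: Cxcl9 in Kupffer-like cells was filtered out at resolution 2, the stricter filter left too few Kupffer-like cells for a fit, CD4 T or NKT-like cells were not found at resolutions 0.5 and 2, and DESeq2 gave no adjusted p for some members. Depth limits the shares, since the median Kupffer-like cell had 916 to 1874 UMIs.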

Other observations

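Plasma-like cells, the antibody-secreting form of B cells, carried Cxcr3 in some libraries. The levels were 103 CPM in Sed 1 from 9 cells, 4.15 in Sed 2 from 39, 24.0 in Ex 1 from 29 and 50.2 in Ex 2 from 85. In Ex 2, 29 of 85 cells had a UMI (34.1%, exact Clopper-Pearson interval 24.2 to 45.2%), and 12 of these 29 also had Ifng, against 14.3% of the plasma-like cells without Cxcr3. The groups overlapped. Sed 1 rests on 5 UMIs. The class name depended on the settings: in Ex 2, 15 cells took it with the stricter cell filter and 23 at resolution 2. It was 27 with the members among the variable genes, 75 at resolution 0.5 and 103 with doublets kept. The part of T cell RNA in these cells was not tested.

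Cells whose clusters took no name held 21, 91, 298 and 223 Cxcl9 UMIs, at 11.1, 20.3, 100.6 and 119.8 CPM, and 196, 765, 156 and 270 Cxcl10 UMIs. These clusters included one led by C1qa, C1qb and Clec4f among the dendritic cells and one led by Apoe and C1qb among the T and NK cells. Platelet-like cells stood out for Cxcl10 in Ex 1, at 342 CPM from 31 cells, against 13.3 to 68.5 CPM in the other libraries.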
